A study of Mus musculus with 30 samples.

Results

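CD48- haematopoietic stem cells (HSCs) of mouse bone marrow were sorted on day 10 after 5-fluorouracil (5-FU), a drug toxic to cells in division, in both the CD48 experiment and the 5-FU experiment of this study. These 10 libraries, of 30 in all, were chosen by their labels and not by any measured value. Each library came from the RNA of 100 sorted cells of C57BL/6 mice aged 8 to 10 weeks, was made with a Nextera XT kit and was read on a NextSeq instrument. The CD48 experiment gave 4 day-10 HSC libraries and 4 libraries of CD48+ haematopoietic progenitor cells (HPCs) of the same day. The 5-FU experiment gave 6 day-10 HSC libraries and libraries of HSCs of untreated mice (n = 4). HSCs were gated as CD150+CD48-EPCR+Lineage- in all of these groups, and HPCs as CD150+CD48+EPCR+Lineage-. Uncultured HSCs of untreated mice from another experiment of the study (n = 4) served as the other steady-state group. The labels give no 5-FU dose and do not say whether libraries of a group came from separate mice, so the p-values below measure the spread between libraries, which may be technical. Every library of the CD48-experiment set came from one experiment and every library of the 5-FU-experiment set from the other, so a difference between the sets and a difference between the experiments cannot be told apart.

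HSCs of an undisturbed adult marrow divide rarely and hold the capacity to rebuild all blood lineages. 5-FU removes most dividing progenitors, after which HSCs enter the cell cycle, replenish the marrow and then return towards quiescence. CD150, the product of Slamf1, and EPCR, the product of Procr, mark HSCs, while CD48 appears as cells leave the stem cell compartment. Interferons act on HSCs through cell surface receptors and switch on a large, jointly controlled group of antiviral genes. A sort of few cells can also carry material of neighbours in the marrow, such as erythroblasts, the macrophages they cluster around, and CXCL12-producing stromal cells.

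Transcripts of the gate genes Cd48 and Slamf1 lay in similar ranges in both day-10 sets. Levels are given as CPM, exon read counts scaled to library size. None of the 3 gate genes, Cd48, Slamf1 and Procr, passed in the comparison of the sets described below. Procr was at 61.3 CPM in CD48-experiment replicate 4, against 91.3 CPM in the next lowest library of its set. RNA levels do not measure the sorted surface proteins, and transcripts of other lineages are described below. Cd48 transcripts were at 1.89, 1.28, 5.11 and 4.02 CPM in the 4 libraries of the CD48-experiment set. Cd48 in the 5-FU-experiment set ran from 2.06 to 6.06 CPM with a median of 3.58 CPM, and in the CD48+ HPCs it was 45.8 to 56.7 CPM, far above every HSC library. Slamf1 stood at 44.6, 57.2, 66.4 and 52.4 CPM in the CD48-experiment set, against 45.0 to 55.3 CPM (median 50.4) in the 5-FU-experiment set. Uncultured HSCs held 22.4 to 26.4 CPM of Slamf1 and untreated HSCs 26.7 to 35.7 CPM, and Slamf1 passed as higher at day 10 in both of the steady-state comparisons described below. Cd48 itself passed as higher in the 5-FU experiment, against 0 to 0.929 CPM in untreated HSCs (edgeR adjusted p = 0.00141), and not in the CD48 experiment, against 1.33 to 3.45 CPM in uncultured HSCs. The stem cell genes Mllt3 and Fgd5 were at 321 to 431 and 304 to 359 CPM in the CD48-experiment set and at 284 to 459 and 253 to 395 CPM in the 5-FU-experiment set, all above the HPC ranges of 147 to 188 and 109.9 to 142 CPM. Mpo, a gene of committed myeloid progenitors, reached 0.472 CPM at most in the CD48-experiment set and 1.51 CPM at most in the 5-FU-experiment set, against 18.2 to 333 CPM in HPCs.

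Depth was similar in both sets, at 7.05 to 10.2 M exon reads per library in the CD48-experiment set and 6.47 to 8.81 M in the 5-FU-experiment set. Of 7 measures compared by two-sided exact permutation tests over libraries, none passed after Benjamini-Hochberg adjustment. The nearest were the mitochondrial share of reads, at 1.25 ± 0.288% in the CD48-experiment set and 1.77 ± 0.122% in the 5-FU-experiment set (SD, n = 4 and 6; exact permutation p = 0.00952, adjusted p = 0.0667), and the intron share, at 67.4 ± 1.35% in the CD48-experiment set and 64.3 ± 1.58% in the 5-FU-experiment set (exact permutation p = 0.0286, adjusted p = 0.1). The smallest two-sided p that 4 against 6 libraries allow is 0.00476. Across genes, log2 CPM of any pair of libraries from different sets correlated with r of 0.884 to 0.977 (median 0.953, 24 pairs). Within the CD48-experiment set r was 0.949 to 0.978 (median 0.964, 6 pairs), and within the 5-FU-experiment set it was 0.936 to 0.977 (median 0.964, 15 pairs). Genes are not independent replicates, so these values are descriptions.

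Several libraries stood apart before any comparison was made. In the CD48-experiment set, replicate 3 held haemoglobin and macrophage transcripts and replicate 4 stromal transcripts. In the 5-FU-experiment set, replicate 6 held the highest levels of interferon response genes, replicates 3 and 4 next to it. Replicate 3 also held stromal transcripts and replicate 4 erythroid transcripts. Results are therefore also given with these 5 libraries left out together, a setting chosen after their values were seen. That setting leaves 2 libraries in the CD48-experiment set and 3 in the 5-FU-experiment set. The 3 include replicate 1, where the heat shock gene Hspa1a was at 109 CPM, against 7.02 CPM in the next library.

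**Figure D1:**
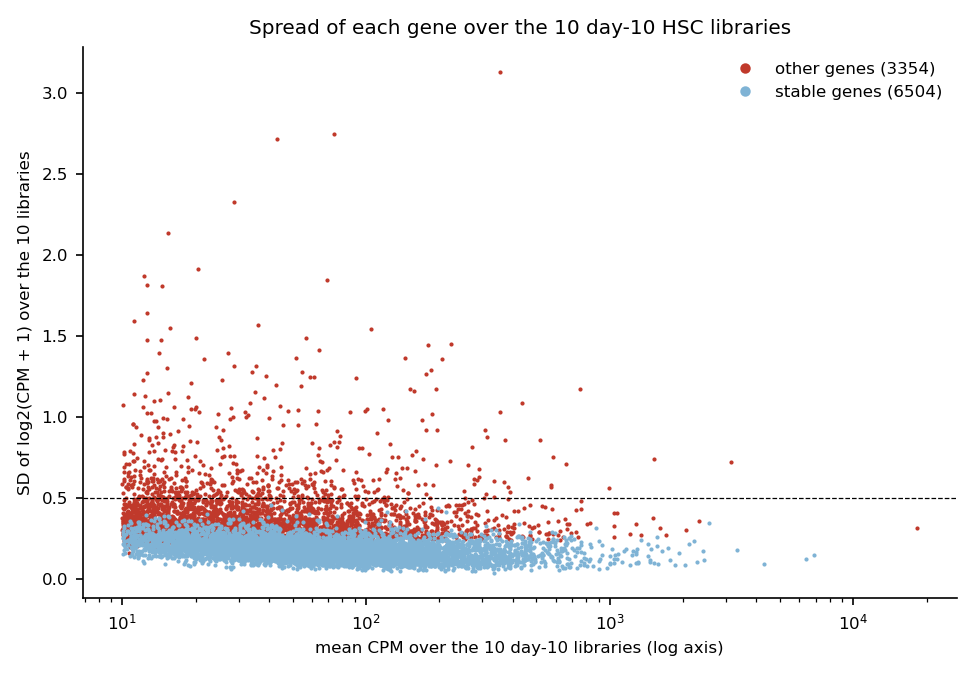
SD of log2(CPM + 1) over the 10 day-10 HSC libraries (vertical axis) against mean CPM on a log axis, 1 point per gene with a mean of at least 10 CPM. The dashed line marks the SD limit of 0.5, and the 6504 stable genes form a band along the bottom at every level of expression, around the median SD of 0.22.

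Most of the transcriptome was alike in both sets. A gene was called stable when the 95% interval of its fold change between sets lay within 1.5-fold in both directions and the SD of log2(CPM + 1) over the 10 libraries was under 0.5. Of 9858 genes with a mean of at least 10 CPM, 6504 (66%) met both limits. The median SD over the 10 libraries was 0.22 on the log2 scale, against 0.19 within the CD48-experiment set and 0.18 within the 5-FU-experiment set. Leaving out each library in turn gave 5742 to 6767 stable genes.

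The 10 steadiest of the well-expressed genes had varied roles, and 6 of them are described here. Pum2, which encodes an RNA-binding repressor of translation, averaged 336 ± 12.1 CPM in the CD48-experiment set and 338 ± 7.04 CPM in the 5-FU-experiment set (SD, n = 4 and 6), with a 95% interval of -0.15 to 0.12 for the log2 difference. Cd81, a tetraspanin of the cell surface, averaged 291 ± 5.81 CPM in the CD48-experiment set and 276 ± 8.17 CPM in the 5-FU-experiment set, and against steady-state HSCs it was lower at day 10 in both experiments. The kinase gene Stk24 averaged 276 ± 10.6 CPM in the CD48-experiment set and 271 ± 9.39 CPM in the 5-FU-experiment set. Dpf2, a subunit of BAF chromatin remodelling complexes, averaged 127 ± 3.75 CPM in the CD48-experiment set and 127 ± 5.47 CPM in the 5-FU-experiment set. Celf2, a splicing regulator, averaged 468 ± 15.9 CPM in the CD48-experiment set and 479 ± 19.1 CPM in the 5-FU-experiment set. Sptbn1, a spectrin of the membrane skeleton, closed the 10 steadiest genes, with 640 ± 25.8 CPM in the CD48-experiment set and 609 ± 19.2 CPM in the 5-FU-experiment set.

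The most abundant transcripts included genes of translation factors and actin. Per kilobase of exon, the translation elongation factor gene Eef1a1 averaged 3862 CPM over the 10 libraries, Actb 3340 CPM, Eef2 1385 CPM, the membrane protein gene Serinc3 634 CPM and Adgrg1, the adhesion receptor GPR56 of stem cells, 632 CPM. Eef2 was at 4214, 4371, 4158 and 3816 CPM in the CD48-experiment set and at 4094 to 4702 CPM (median 4388) in the 5-FU-experiment set, and its SD on the log2 scale was 0.093. Abundance did not by itself go with a steady level. Rnf213, an interferon-inducible ubiquitin ligase gene, was at 2307, 1779, 2023 and 2254 CPM in the CD48-experiment set, and in the 5-FU-experiment set it ran from 2126 CPM to 9630 CPM (median 2582) with its highest value in replicate 6. The chaperone gene Hspa8 was at 1997, 1800, 1845 and 1807 CPM in the CD48-experiment set, and at 1877 to 3506 CPM (median 2586) in the 5-FU-experiment set. Lars2, a mitochondrial tRNA synthetase gene, had the highest mean CPM, at 21290, 27800, 20400 and 11890 CPM in the CD48-experiment set and 15950 to 17870 CPM (median 17080) in the 5-FU-experiment set. How much of that signal is Lars2 mRNA was not tested.

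Gene groups differed in how many members were stable. Among cytosolic ribosomal protein genes 64 of 80 were stable, against 66% of all genes with at least 10 CPM. Of 75 oxidative phosphorylation genes 42 were, as were 26 of 50 HSC identity genes and 11 of 24 glycolysis genes. Cell cycle and response genes were seldom so: 8 of 70 mitosis genes, 1 of 55 DNA replication genes, 2 of 66 interferon response genes and 2 of 21 monocyte and macrophage genes met the limits. Low-abundance members cannot meet a limit on mean CPM, so these counts also depend on each group's level.

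Day-10 HSCs also shared a difference from steady-state HSCs that did not need the same controls. The CD48-experiment set was compared with uncultured HSCs, and the 5-FU-experiment set with untreated HSCs, in 1 edgeR quasi-likelihood fit of 18 libraries in which the comparisons had no library in common. At an adjusted p under 0.05, 1865 of 13197 genes (14.1%) passed in the CD48 experiment and 4436 (33.6%) in the 5-FU experiment. Of these, 1323 genes (10% of those tested) moved the same way in both, which is 70.9% of the calls in the CD48 experiment and 29.8% of the calls in the 5-FU experiment. They split into 680 higher (5.15%) and 643 lower (4.87%) at day 10, and 6 genes moved in opposite directions. The control sets differed from each other at 188 genes (1.42%). Without 1 library at a time the shared count was 929 to 1372, and without the 5 libraries that stood apart it was 875. The CD48-experiment comparison crosses experiments, and without uncultured replicate 4 its calls numbered 1243. Of the shared genes, 720 were also stable between the day-10 sets, 461 of them higher and 259 lower at day 10.

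**Figure D2:**
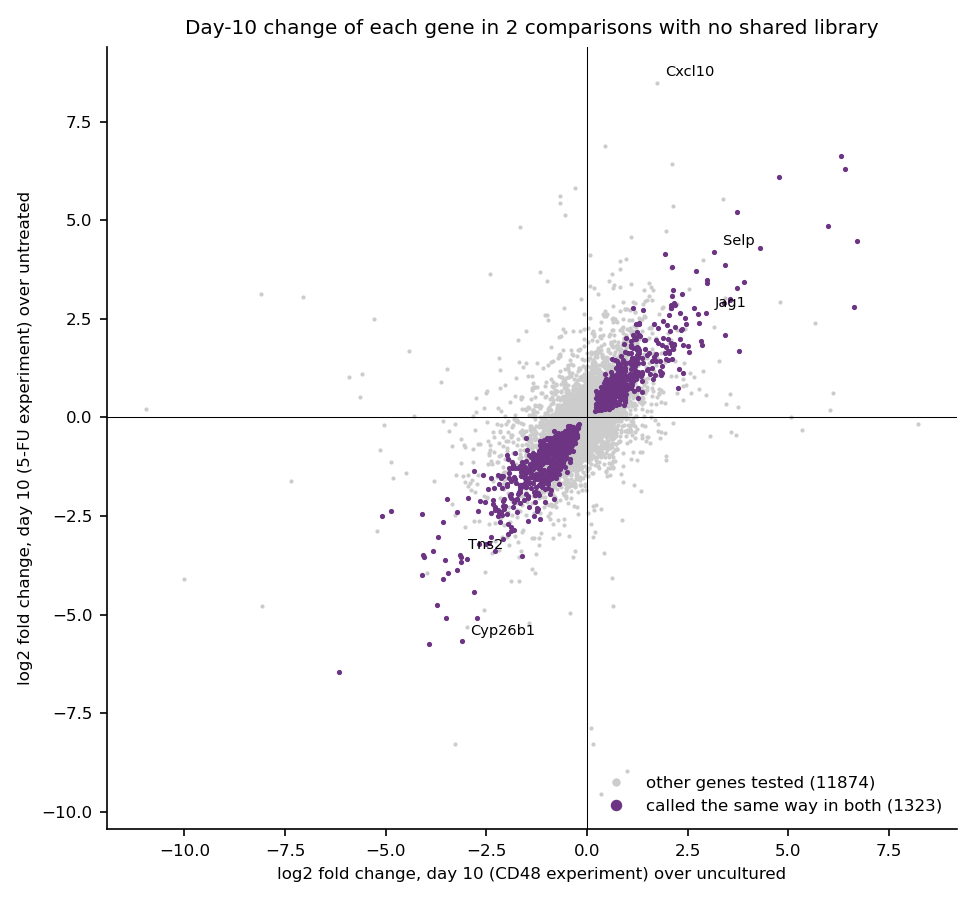
Log2 fold change of each gene in the CD48 experiment (day-10 over uncultured HSCs) and in the 5-FU experiment (day-10 over untreated HSCs), with the 1323 genes called the same way in both in purple. Selp and Jag1 lie at the upper right and Tns2 and Cyp26b1 at the lower left, while Cxcl10 lies high on the 5-FU-experiment axis and was not called in both.

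The largest rises at day 10 in both comparisons included those of Selp, Jag1, Cd53, Gem and Lgals1. Selp (mm10 chromosome 1, 164115264 to 164150026), which encodes P-selectin, was at 315, 274, 308 and 258 CPM in the CD48-experiment set and 23.4 to 47.7 CPM in uncultured HSCs, a log2 change of 3.16 ± 0.26 (SE; edgeR adjusted p = 4.59e-07). Selp in the 5-FU-experiment set was at 266 to 516 CPM (median 365), against 10.4 to 29.5 CPM in untreated HSCs, which is 4.21 ± 0.27 on the log2 scale (adjusted p = 6.2e-09). No day-10 library overlapped a steady-state library for this gene.

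Jag1 (chromosome 2, 137081451 to 137116520), a Notch ligand, was at 106, 89.8, 141 and 111 CPM in the CD48-experiment set, against 11.9 to 16.7 CPM in uncultured HSCs. Jag1 was at 86.8 to 138 CPM (median 92.4) in the 5-FU-experiment set, against 10.0 to 21.7 CPM in untreated HSCs. Its log2 changes were 2.96 ± 0.21 in the CD48 experiment and 2.65 ± 0.19 in the 5-FU experiment (edgeR adjusted p = 6.51e-08 and 4.73e-08). Cd53 (chromosome 3, 106758861 to 106790149), a leukocyte tetraspanin, was at 234, 168, 230.3 and 189.6 CPM in the CD48-experiment set and at 176 to 319 CPM in the 5-FU-experiment set. Uncultured HSCs held 19.2 to 43.5 CPM of Cd53 and untreated HSCs 12.8 to 24.1 CPM. Gem, a small GTPase gene, was at 169 to 234 CPM in the CD48-experiment set and spread more widely in the 5-FU-experiment set, at 68.6 to 387 CPM, with 14.3 to 33.9 CPM in uncultured and 12.4 to 28.9 CPM in untreated HSCs. Lgals1, which encodes galectin-1, rose too, by log2 changes of 2.76 ± 0.25 in the CD48 experiment and 2.63 ± 0.24 in the 5-FU experiment. Under intron reads Lgals1 lost its call in the 5-FU experiment.

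The 6 largest falls at day 10 in both comparisons were those of Tns2, Cyp26b1, Igdcc4, Igf2bp2, Ltbp4 and Rhbdf1. Tns2 (chromosome 15, 102100373 to 102116401), a focal adhesion protein, was at 12.6, 19.1, 17.7 and 13.0 CPM in the CD48-experiment set, against 112 to 157 CPM in uncultured HSCs, and its log2 change was -3.16 ± 0.40 (edgeR adjusted p = 5.46e-05). Tns2 in the 5-FU-experiment set was at 4.04 to 37.2 CPM (median 14.0), against 142 to 226 CPM in untreated HSCs, which is -3.49 ± 0.35 on the log2 scale (adjusted p = 1.47e-06). Cyp26b1 (chromosome 6, 84571414 to 84593908), which degrades retinoic acid, was at 3.19, 0.494, 35.0 and 2.36 CPM in the CD48-experiment set, so replicate 3, the library with haemoglobin and macrophage transcripts, came close to the 38.4 to 135 CPM of uncultured HSCs. Cyp26b1 in the 5-FU-experiment set was at 0.847 to 2.08 CPM, against 50.1 to 111 CPM in untreated HSCs. Igdcc4, a receptor of the immunoglobulin superfamily, had log2 changes of -2.13 ± 0.26 in the CD48 experiment and -2.39 ± 0.23 in the 5-FU experiment. Igf2bp2, an mRNA-binding protein gene, Ltbp4, which encodes a binding protein of latent TGF-beta, and Rhbdf1, an inactive rhomboid gene, fell as well, with log2 changes of -2.33 to -2.07 in the CD48 experiment and -2.29 to -2.08 in the 5-FU experiment. All 12 genes tracked for these shared rises and falls kept both calls in each of the 18 fits that left out 1 library, while Ltbp4 lost its call in the CD48 experiment under intron reads.

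The stem cell programme was partly lower at day 10 in both sets. Among 50 HSC identity genes, 12 were lower and 6 higher in the CD48 experiment and 27 were lower and 5 higher in the 5-FU experiment, with 11 lower and 4 higher in both. Mmrn1, Cish, a feedback inhibitor of cytokine signalling, and Meis1, a homeobox factor gene, were among the members lower in both, and Esam, Vwf, Cd9 and Ly6a were the members higher in both. Median log2 changes of the group were -0.23 in the CD48 experiment and -0.38 in the 5-FU experiment, beside 0.00 and 0.01 for all genes tested. Among all genes 6.91% were lower in the CD48 experiment and 15.5% in the 5-FU experiment, while 7.22% and 18.2% were higher. Of 30 immediate early genes 5 fell in both comparisons, Ier2, Dusp2, Egr1, Maff and Myc, beside 4.87% of all genes. Of 23 tested genes of the progenitor and myeloid commitment list 7 rose in both, among them Cd53, Spi1, Muc13, Gfi1, Emb and Csf1r, beside 5.15% of all genes. In the same list 4 genes fell in the CD48 experiment, Mpo among them, and 1 of these 4 fell in the 5-FU experiment too. Of 25 megakaryocyte and platelet genes, Selp, Vwf, F2r and Cd9 rose in both and 5 fell in both.

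Mitosis genes were higher at day 10 in the 5-FU experiment, and a smaller share of them passed as higher in the CD48 experiment. Of 70 mitosis genes 18 passed as higher in the CD48 experiment (background 7.22% higher) and 68 in the 5-FU experiment (background 18.2% higher), with medians of 0.89 and 1.74. Mki67, a marker of dividing cells, was at 372, 445, 260.0 and 307 CPM in the CD48-experiment set, against 95.9 to 290.0 CPM in uncultured HSCs, a log2 change of 0.91 ± 0.29 (edgeR adjusted p = 0.0391). Mki67 in the 5-FU-experiment set was at 398 to 508 CPM (median 418), against 90.2 to 269 CPM in untreated HSCs, which is 1.42 ± 0.27 on the log2 scale (adjusted p = 0.000655). The mitosis count in the CD48 experiment depended on single libraries: it was 6 without uncultured replicate 1, 2 or 4 or without CD48-experiment replicate 1 or 2, 34 without uncultured replicate 3, 29 without untreated replicate 2, and 53 against untreated in place of uncultured HSCs.

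DNA replication genes passed as higher for 2 of 55 members in the CD48 experiment, a share below the 7.22% of all genes. In the 5-FU experiment 43 of 55 passed as higher, beside 18.2% of all genes. Their medians were 0.07 in the CD48 experiment and 0.67 in the 5-FU experiment. The count in the CD48 experiment was 7 without uncultured replicate 3 and 8 without CD48-experiment replicate 3, and the count in the 5-FU experiment was 26 to 28 without untreated replicate 3 or 4. Oxidative phosphorylation genes passed as higher for 19 of 75 members in the CD48 experiment and 60 of 75 in the 5-FU experiment, 18 of them in both. The CD48-experiment count was 12 without uncultured replicate 4 or without CD48-experiment replicate 2. Ribosomal protein genes passed as higher for 21 of 80 in the CD48 experiment and 24 of 80 in the 5-FU experiment, 14 of them in both. Among all genes 5.15% passed as higher in both comparisons. Whether the day-10 changes themselves differed between experiments was tested as the difference of both changes. By edgeR 0 genes passed that test, with 1888 genes at an unadjusted p under 0.05, and DESeq2 called 163. Without CD48-experiment replicate 2 edgeR called 8.

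Macrophage genes were higher at day 10 in both comparisons, beside library differences in the same genes. Of 22 tested members of the monocyte and macrophage list, 11 passed in the CD48 experiment and 12 in the 5-FU experiment, and the 10 shared ones were Lgmn, Ctss, Fcgr1, C1qa, C1qb, C1qc, Cd163, Vcam1, Mrc1 and Csf1r. Among all genes 7.22% passed as higher in the CD48 experiment, 18.2% in the 5-FU experiment and 5.15% in both. The CD48-experiment count was 4 without replicate 3 of that set and 5 without uncultured replicate 1, 3 or 4, and 7 without uncultured replicate 2. With the 5 libraries that stood apart left out, 2 members passed in the CD48 experiment and 7 in the 5-FU experiment. C1qb, a subunit of complement C1q made by macrophages, was at 10.6, 10.3, 32.5 and 8.60 CPM in the CD48-experiment set and at 8.12, 11.5, 26.6, 22.5, 8.54 and 12.3 CPM in the 5-FU-experiment set. In such bulk libraries more cells of a type and more RNA per cell cannot be told apart. The part of macrophage material in the day-10 changes was not tested.

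**Figure D3:**
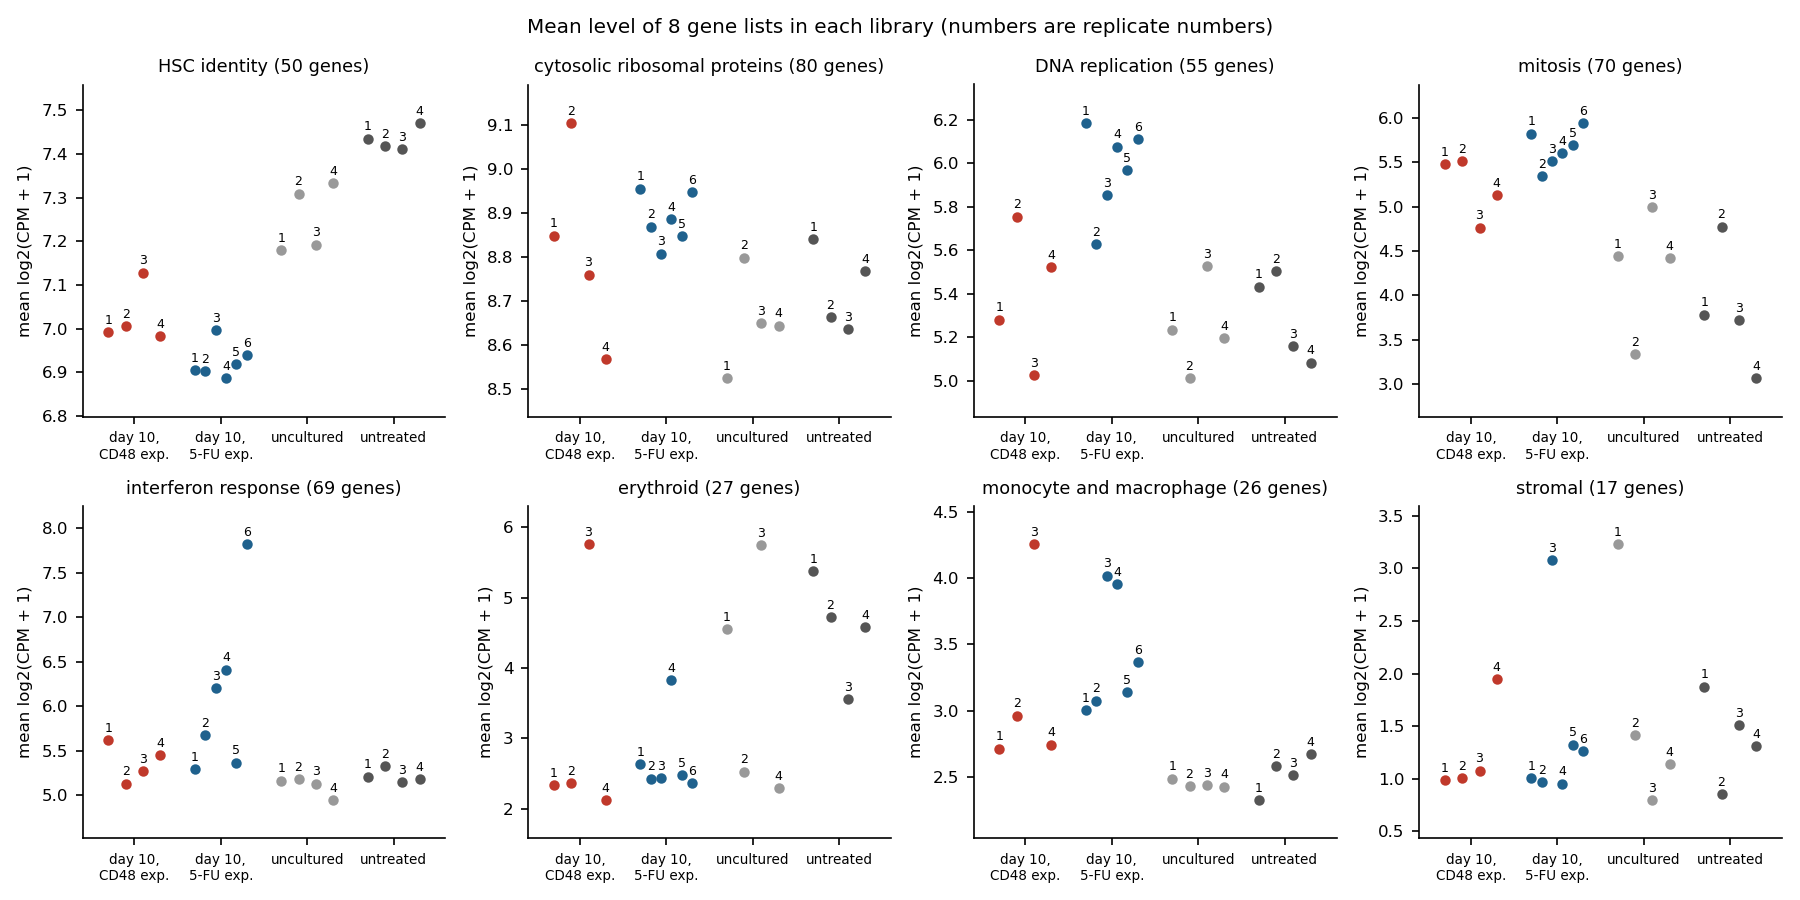
Mean log2(CPM + 1) of 8 gene lists in each day-10 and steady-state library, by group. Each point is 1 library with its replicate number, and the axes do not start at 0; in the CD48-experiment set replicate 3 reaches 5.76 for the erythroid list, and in the 5-FU-experiment set replicate 6 reaches 7.82 for the interferon response.

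Between the day-10 sets themselves, 461 of 12688 genes (3.63%) passed at an adjusted p under 0.05 in an edgeR fit of the 10 libraries alone. Of these, 183 genes were higher (1.44%) and 278 lower (2.19%) in the CD48-experiment set, of which 13 and 23 by at least 2-fold. The median log2 difference of all genes was 0.01, and 1022 genes (8.05%) had CPM ranges that did not overlap. Among the 8 largest falls with at least 32 CPM on average and no overlap between the sets, log2 differences ran from -1.38 for Ms4a6c to -0.97 for Prmt1. Among the 8 largest rises they ran from 0.79 for Rsrp1 to 0.92 for Lonrf3.

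This count rested on single libraries. Without 1 library at a time, the calls numbered 8 without CD48-experiment replicate 1, 755 without replicate 2, 10 without replicate 3 and 354 without replicate 4. They numbered 80, 906, 380, 25, 53 and 178 without 5-FU-experiment replicates 1 to 6, taken in order. With the 5 libraries that stood apart left out, edgeR called 0 genes, in a comparison of 2 libraries with 3. DESeq2 on all 10 libraries called 1402 genes, 569 higher and 833 lower in the CD48-experiment set. For the genes tracked through all settings, the number of these 10 fits that kept the call is given below.

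**Figure D4:**
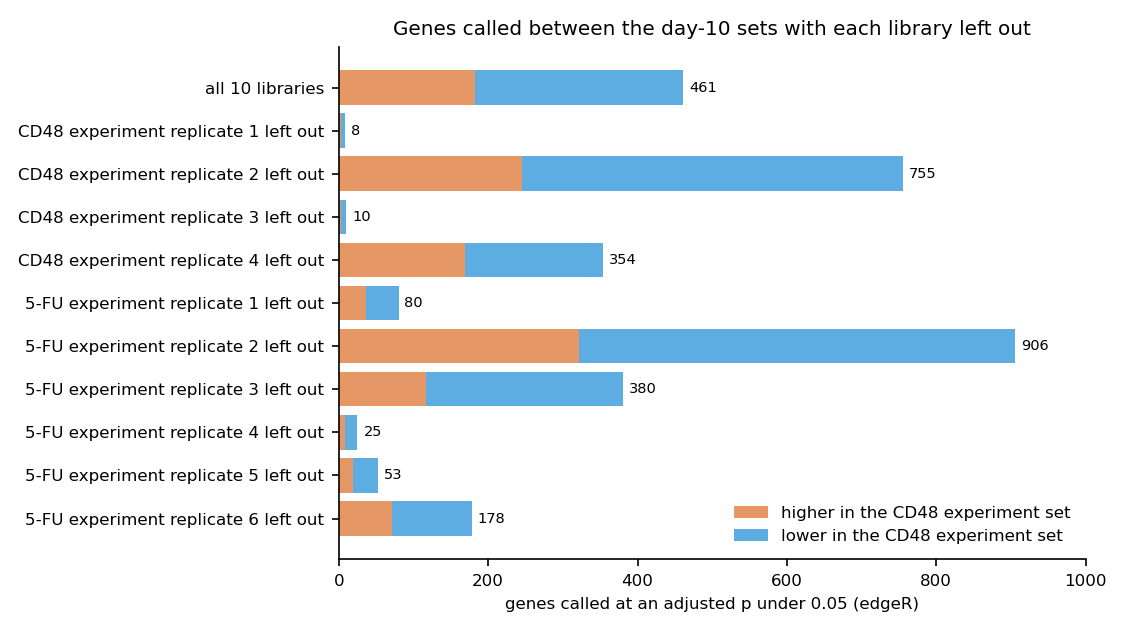
Number of genes called higher and lower in the CD48-experiment set over the 5-FU-experiment set, with all 10 libraries and without each library in turn. The total runs from 8 without CD48-experiment replicate 1 to 906 without 5-FU-experiment replicate 2.

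Of the 33 genes tracked through all settings, 3 kept their call in each of the 10 left-out fits. Cdc45 (mm10 chromosome 16, 18780447 to 18811992), a part of the replicative helicase, was at 21.4, 25.3, 17.0 and 21.2 CPM in the CD48-experiment set and at 35.7 to 49.1 CPM (median 43.7) in the 5-FU-experiment set. The sets did not overlap, and the log2 difference was -1.02 ± 0.13 (SE; edgeR adjusted p = 0.00498). Steady-state HSCs held Cdc45 at 17.1 CPM on average in the uncultured and 20.3 CPM in the untreated group, close to the CD48-experiment set, while HPCs held 55.3 to 66.2 CPM. Settings that ended the call of Cdc45 included intron reads and the 5 libraries left out. Prmt1 (chromosome 7, 44976755 to 44986420), the main arginine methyltransferase of type I, was at 86.3, 108, 76.7 and 106 CPM in the CD48-experiment set and at 158 to 200.1 CPM (median 189) in the 5-FU-experiment set, a log2 difference of -0.97 ± 0.11 (adjusted p = 0.00432). Prmt1 averaged 80.2 CPM in uncultured and 118 CPM in untreated HSCs. Its call too was lost under intron reads and with the 5 libraries left out.

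Rpl29 (chromosome 9, 106428783 to 106431568), a protein of the large ribosomal subunit, went the other way, at 206, 226, 218 and 209 CPM in the CD48-experiment set and 104 to 137 CPM (median 128) in the 5-FU-experiment set. Its log2 difference was 0.80 ± 0.09 (edgeR adjusted p = 0.00432). Uncultured HSCs averaged 193 CPM of Rpl29 and untreated HSCs 98.2 CPM, so the steady-state groups were also far apart. Rpl29 has processed copies in the genome that share its sequence, it lost its call when unique exon reads were used, and under intron reads its log2 difference was -0.08. The part of such copies in the Rpl29 difference was not tested.

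Among the genes lower in the CD48-experiment set, Nop10, a component of H/ACA ribonucleoproteins that modify ribosomal RNA, was at 33.0, 43.8, 24.1 and 41.5 CPM in the CD48-experiment set and 59.5 to 85.3 CPM (median 76.5) in the 5-FU-experiment set. Its log2 difference was -1.07 ± 0.17 (edgeR adjusted p = 0.0153), and its call was kept in 9 of the 10 left-out fits and lost with the 5 libraries left out. Kpna2, an importin that carries proteins into the nucleus, was at 72.4, 55.3, 39.2 and 48.8 CPM in the CD48-experiment set and 73.2 to 145 CPM (median 126) in the 5-FU-experiment set. The histone gene Hist2h2bb was at 15.9, 29.2, 11.4 and 16.6 CPM in the CD48-experiment set and 32.9 to 46.0 CPM in the 5-FU-experiment set. Cnbd2 was at 104 to 201 CPM in the CD48-experiment set and 252 to 466 CPM in the 5-FU-experiment set. Ms4a6c and Slfn9, genes of immune cell families, were at 25.0 to 42.1 and 59.1 to 93.4 CPM in the CD48-experiment set and at 45.3 to 153 and 95.5 to 256 CPM in the 5-FU-experiment set, with both maxima in replicate 6, the library highest in interferon response genes. The part of that response in both genes was not tested. The call was kept in 7 of the 10 left-out fits for Kpna2 and Cnbd2, in 5 for Slfn9, in 4 for Hist2h2bb and in 3 for Ms4a6c. Across the 33 genes tracked through all settings, 3 still passed without CD48-experiment replicate 1 and 4 without its replicate 3. Without its replicates 2 and 4 the numbers were 32 and 24, and without 5-FU-experiment replicates 1 to 6 they were 16, 32, 29, 8, 12 and 23 in order.

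Among the genes higher in the CD48-experiment set, Cdkn1b (chromosome 6, 134920401 to 134925525), which encodes the cell cycle inhibitor p27, was at 170.2, 126, 195 and 160.1 CPM in the CD48-experiment set. The 5-FU-experiment set held it at 76.9 to 107 CPM (median 89.0), below every library of the CD48-experiment set. Its log2 difference was 0.85 ± 0.12 (edgeR adjusted p = 0.0121), and its steady-state means were 116 CPM in uncultured and 83.0 CPM in untreated HSCs. Tbc1d10c, an inhibitor of Ras and calcineurin signalling, was at 99.3, 89.3, 101 and 100.2 CPM in the CD48-experiment set and 39.2 to 73.0 CPM (median 57.4) in the 5-FU-experiment set. Camsap3, a protein of microtubule minus ends, was at 52.7, 43.6, 62.9 and 35.5 CPM in the CD48-experiment set and 18.4 to 32.1 CPM in the 5-FU-experiment set. Rsrp1 was at 206 to 342 CPM in the CD48-experiment set and 145 to 191 CPM in the 5-FU-experiment set. Lonrf3, the phospholipid scramblase gene Plscr4 and the zinc finger gene Zfp606 also passed, with log2 differences of 0.92 ± 0.17, 0.85 ± 0.20 and 0.84 ± 0.15. The call was kept in 8 of the 10 left-out fits for Cdkn1b, in 7 for Tbc1d10c and Rsrp1, in 6 for Lonrf3 and Zfp606, in 5 for Camsap3 and in 3 for Plscr4.

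Replication genes held the largest share of calls among the lists in the set comparison. Of 55 DNA replication genes 16 passed as lower in the CD48-experiment set and none as higher, beside 2.19% lower calls among all genes, and the median log2 difference was -0.57. Among them were Cdc45, Cdc6, Mcm3, Mcm5, Mcm6, Mcm10, Ticrr, Pole, Pcna, Fen1, Rfc2, Chaf1a, Uhrf1, Tyms and Rrm1. Cdc6, which loads the helicase at origins, was at 13.6, 16.5, 9.86 and 16.2 CPM in the CD48-experiment set and 21.9 to 38.4 CPM (median 28.4) in the 5-FU-experiment set. Mcm5, a helicase subunit, was at 174, 235, 113 and 225 CPM in the CD48-experiment set and 248 to 418 CPM (median 359) in the 5-FU-experiment set. Cdc6 kept its call in 6 and Mcm5 in 4 of the 10 left-out fits. The mean of the list, as log2(CPM + 1), was 5.28, 5.76, 5.02 and 5.52 in the CD48-experiment set and 6.19, 5.63, 5.85, 6.08, 5.97 and 6.11 in the 5-FU-experiment set, so CD48-experiment replicate 2 overlapped 5-FU-experiment replicate 2. Steady-state libraries had means of 5.01 to 5.53 (uncultured) and 5.08 to 5.51 (untreated), and HPCs 6.44 to 6.71. The count of 16 was 1 without CD48-experiment replicate 1 or 3 or without 5-FU-experiment replicate 4 or 5, 2 and 4 without 5-FU-experiment replicates 1 and 6, and 8 without CD48-experiment replicate 4. It was 35 without CD48-experiment replicate 2, 31 without 5-FU-experiment replicate 2 and 0 with the 5 libraries left out.

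Mitosis genes passed as lower in the CD48-experiment set for 6 of 70 members, Tacc3, Ccnb1, Bub3, Kif22, Kif20a and Kif20b, with a list median of -0.41. Among all genes 2.19% passed as lower. Tacc3, a spindle protein, was at 27.0, 31.3, 19.4 and 24.4 CPM in the CD48-experiment set and 42.6 to 57.2 CPM (median 45.0) in the 5-FU-experiment set. Ccnb1, which encodes cyclin B1, was at 29.96, 29.7, 20.9 and 22.9 CPM in the CD48-experiment set, and 33.4 to 62.2 CPM (median 49.2) in the 5-FU-experiment set. Tacc3 kept its call in 8 and Ccnb1 in 5 of the 10 left-out fits. List means were 5.48, 5.51, 4.76 and 5.13 in the CD48-experiment set and 5.34 to 5.95 in the 5-FU-experiment set, above most steady-state libraries in both sets (3.34 to 5.00 in uncultured and 3.06 to 4.77 in untreated HSCs). The mitosis count was 0 without CD48-experiment replicate 1 or 3 and 1 or 2 without its replicate 4 or 5-FU-experiment replicates 1, 4, 5 and 6. It was 16 without CD48-experiment replicate 2, 13 without 5-FU-experiment replicate 2 and 4 without 5-FU-experiment replicate 3.

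Genes of energy metabolism and translation were mixed, beside 2.19% lower and 1.44% higher calls among all genes. Of 75 oxidative phosphorylation genes, 7 passed as lower in the CD48-experiment set (Atp5j2, Ndufc2, Ndufa9, Ndufa7, Cox6b1, Ndufs1 and Atp5a1) and 1 as higher (Ndufab1), with a median of -0.22. The count of lower genes was 0 without CD48-experiment replicate 1 or 3, 1 to 3 without 5-FU-experiment replicate 1, 4, 5 or 6 and 4 without CD48-experiment replicate 4. Atp5j2, a subunit of ATP synthase, was at 9.67, 12.5, 7.72 and 10.3 CPM in the CD48-experiment set and 17.2 to 26.6 CPM (median 22.1) in the 5-FU-experiment set. Gpi1, the glycolytic isomerase, was at 484, 504, 426 and 461 CPM in the CD48-experiment set and 607 to 706 CPM (median 663) in the 5-FU-experiment set, and Tpi1 and Pgam1 were also lower among 24 glycolysis genes. Of 80 ribosomal protein genes, Rpl29, Rpl35a and Rpl13 passed as higher and 4 passed as lower, among them Rps4x, Rps3 and Rpl17. Hsp90ab1, a cytosolic chaperone gene, was at 1640, 1740, 1530 and 1814 CPM in the CD48-experiment set and 1931 to 2847 CPM (median 2258) in the 5-FU-experiment set, and was the only one of 17 heat shock and chaperone genes to pass. The call was kept in 8 of the 10 left-out fits for Atp5j2 and Gpi1, in 6 for Ndufc2, in 5 for Pdia4, a chaperone gene of the endoplasmic reticulum, and in 3 for Tpi1 and Hsp90ab1. Under intron reads the log2 differences of Atp5j2, Ndufc2, Pdia4 and Hsp90ab1 changed sign.

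Of 50 HSC identity genes, 3 were higher in the CD48-experiment set, Hoxb4, Robo4 and Trim47, and none lower, beside 1.44% higher calls among all genes. Their median log2 difference was 0.09. At an unadjusted p under 0.05 there were 21 of the 50, 6 of them lower in the CD48-experiment set, against 3263 of all 12688 genes. Hoxb4, a homeobox gene of stem cell self-renewal, was at 48.2, 37.5, 54.4 and 33.4 CPM in the CD48-experiment set and 24.1 to 31.5 CPM in the 5-FU-experiment set. Robo4, a guidance receptor of HSCs and endothelium, was at 185, 129, 182 and 146 CPM in the CD48-experiment set and 77.7 to 127 CPM (median 114) in the 5-FU-experiment set. Hoxb4 kept its call in 3 and Robo4 in 2 of the 10 left-out fits. The count of 3 was 7 without 5-FU-experiment replicate 2, 2 without CD48-experiment replicate 4, 1 without 5-FU-experiment replicate 3 and 0 without CD48-experiment replicate 1 or 3 or 5-FU-experiment replicates 1, 4, 5 and 6. Hlf, which did not pass, was at 1019, 796, 1172 and 906 CPM in the CD48-experiment set and 413 to 807 CPM (median 677) in the 5-FU-experiment set. Of the 24 tested genes of the quiescence list, 2 were higher in the CD48-experiment set, Cdkn1b among them.

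Interferon response genes differed widely among libraries of 1 set. In the set comparison edgeR called 0 of 66 interferon response genes, although their median log2 difference was -1.07 and 37 members had an unadjusted p under 0.05, all lower in the CD48-experiment set. DESeq2 called 7 and the fit of all 30 libraries 35. List means were 5.62, 5.13, 5.27 and 5.45 in the CD48-experiment set and 5.29, 5.68, 6.21, 6.41, 5.37 and 7.82 in the 5-FU-experiment set, beside 4.95 to 5.18 in uncultured and 5.15 to 5.33 in untreated HSCs. Replicates 1 and 5 of the 5-FU-experiment set thus lay within the range of the CD48-experiment set. Replicate 6 was the highest library of the 5-FU-experiment set for 61 of 64 members with at least 10 CPM in some library, and replicate 4 for the other 3. Within the CD48-experiment set replicate 1 was highest for 29 of 60 such members and replicate 4 for 23. Members can pass this limit through the highest library alone, so these counts are descriptions.

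The 4 members below span a chemokine, a GTPase and antiviral effectors, and their promoters are printed because the same letters recur in them. Sequences are from RefSeq (GRCm38.p6, the mm10 assembly), read 5′ to 3′ along the gene's strand upstream of its start, in lower case with the interferon-stimulated response element letters in capitals:
Cxcl10 (chr5:92349053-92349139, minus strand): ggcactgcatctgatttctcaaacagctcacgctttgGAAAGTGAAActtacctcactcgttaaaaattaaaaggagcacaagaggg
Gbp2 (chr3:142620564-142620653, plus strand): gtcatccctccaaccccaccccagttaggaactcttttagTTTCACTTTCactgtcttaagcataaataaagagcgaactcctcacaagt
Ifit3 (chr19:34583367-34583456, plus strand): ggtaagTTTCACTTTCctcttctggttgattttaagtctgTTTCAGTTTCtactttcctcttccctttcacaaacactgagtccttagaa
Isg15 (chr4:156200835-156200924, minus strand): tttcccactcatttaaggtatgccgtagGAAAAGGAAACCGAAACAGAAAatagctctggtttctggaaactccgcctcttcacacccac
The motif searched was GAAA, any 2 bases and GAAA again, on both strands, in windows from 250 bases before to 50 after the gene start, and it shows as TTTC, 2 bases and TTTC where it lies on the other strand. In Isg15 3 matches overlap. The motif was found in 29 of 51 interferon response genes with a window (56.9%), against 1079 of 27025 genes in all (3.99%) and 388 of 10166 genes tested between the sets (3.82%). A match describes the letters and does not show that a factor binds there.

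Cxcl10, a chemokine that draws T cells, was at 16.3, 0.494, 0.475 and 2.36 CPM in the CD48-experiment set and at 5.18, 56.8, 30.1, 118, 12.4 and 501 CPM in the 5-FU-experiment set. Replicate 6 was highest, and replicate 1 of the 5-FU-experiment set lay below replicate 1 of the CD48-experiment set. Ifit3, an RNA-binding antiviral protein gene, was at 12.6, 1.38, 2.61 and 1.80 CPM in the CD48-experiment set and at 0.84, 30.1, 16.1, 29.8, 8.30 and 101 CPM in the 5-FU-experiment set. Isg15, a ubiquitin-like modifier, was at 5.31, 4.34, 4.75 and 4.72 CPM in the CD48-experiment set and at 4.34, 8.02, 10.9, 18.9, 4.03 and 87.9 CPM in the 5-FU-experiment set. For all 3 genes replicate 6 was the highest and replicates 1 and 5 the lowest libraries of the 5-FU-experiment set. Gbp2, an interferon-inducible GTPase gene, was at 88.6, 58.2, 66.02 and 63.3 CPM in the CD48-experiment set and at 48.1, 70.7, 109, 93.6, 96.9 and 1076 CPM in the 5-FU-experiment set, so only replicate 6 stood far out.

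Antigen presentation genes were highest in replicate 6 of the 5-FU-experiment set. MHC class I list means were 8.54, 8.44, 8.51 and 8.29 in the CD48-experiment set and 8.59, 8.35, 8.53, 8.85, 8.16 and 9.34 in the 5-FU-experiment set. The order of the other libraries was partly another one than for interferon response genes. Replicate 4 of the CD48-experiment set, the second highest there for interferon response genes, was the lowest for class I and, at 3.71, for class II genes. Cd74, the invariant chain of MHC class II, was at 88.9, 64.6, 51.9 and 48.4 CPM in the CD48-experiment set and at 163, 64.4, 201, 478, 81.5 and 998 CPM in the 5-FU-experiment set. Ciita, the class II transactivator, reached 83.5 CPM in replicate 6 of the 5-FU-experiment set and 13.5 CPM at most in its other libraries. Untreated HSCs held 139.9 to 225 CPM of Cd74 and uncultured HSCs 55.3 to 173 CPM, so the CD48-experiment set lay in the lower part of the steady-state ranges or below them. The MHC class II list passed for 0 of 10 members between sets by edgeR, with 4 at an unadjusted p under 0.05. Ly6a, which encodes Sca-1 and responds to interferon, was at 153, 117, 179 and 179.9 CPM in the CD48-experiment set and at 267, 163, 221, 341, 215 and 899 CPM in the 5-FU-experiment set, above the 59.3 to 72.7 CPM of uncultured and 75.0 to 93.8 CPM of untreated HSCs in all 10 libraries.

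Against steady state, interferon response genes passed as higher for 42 of 66 members in the 5-FU experiment, beside 18.2% of all genes. In the CD48 experiment 4 passed as higher, Lgals9, Ifi27l2a, Oas2 and Trim25, a share below the 7.22% of all genes, and 1 as lower. The 4 were also among the 42. Oas2, which senses double-stranded RNA, was at 278, 111, 205 and 241 CPM in the CD48-experiment set and at 136 to 831 CPM (median 274) in the 5-FU-experiment set, with 26.4 to 71.9 CPM in uncultured and 31.97 to 83.2 CPM in untreated HSCs. Its log2 changes were 2.09 ± 0.49 in the CD48 experiment and 2.85 ± 0.48 in the 5-FU experiment (edgeR adjusted p = 0.00726 and 0.000208). Without 5-FU-experiment replicate 6, whose spread enters the shared fit, 12 members passed in the CD48 experiment and 30 in the 5-FU experiment. Without untreated replicate 3 or 4, 28 passed in the 5-FU experiment. With the 5 libraries left out, 13 passed in the CD48 experiment and 17 in the 5-FU experiment.

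**Figure D5:**
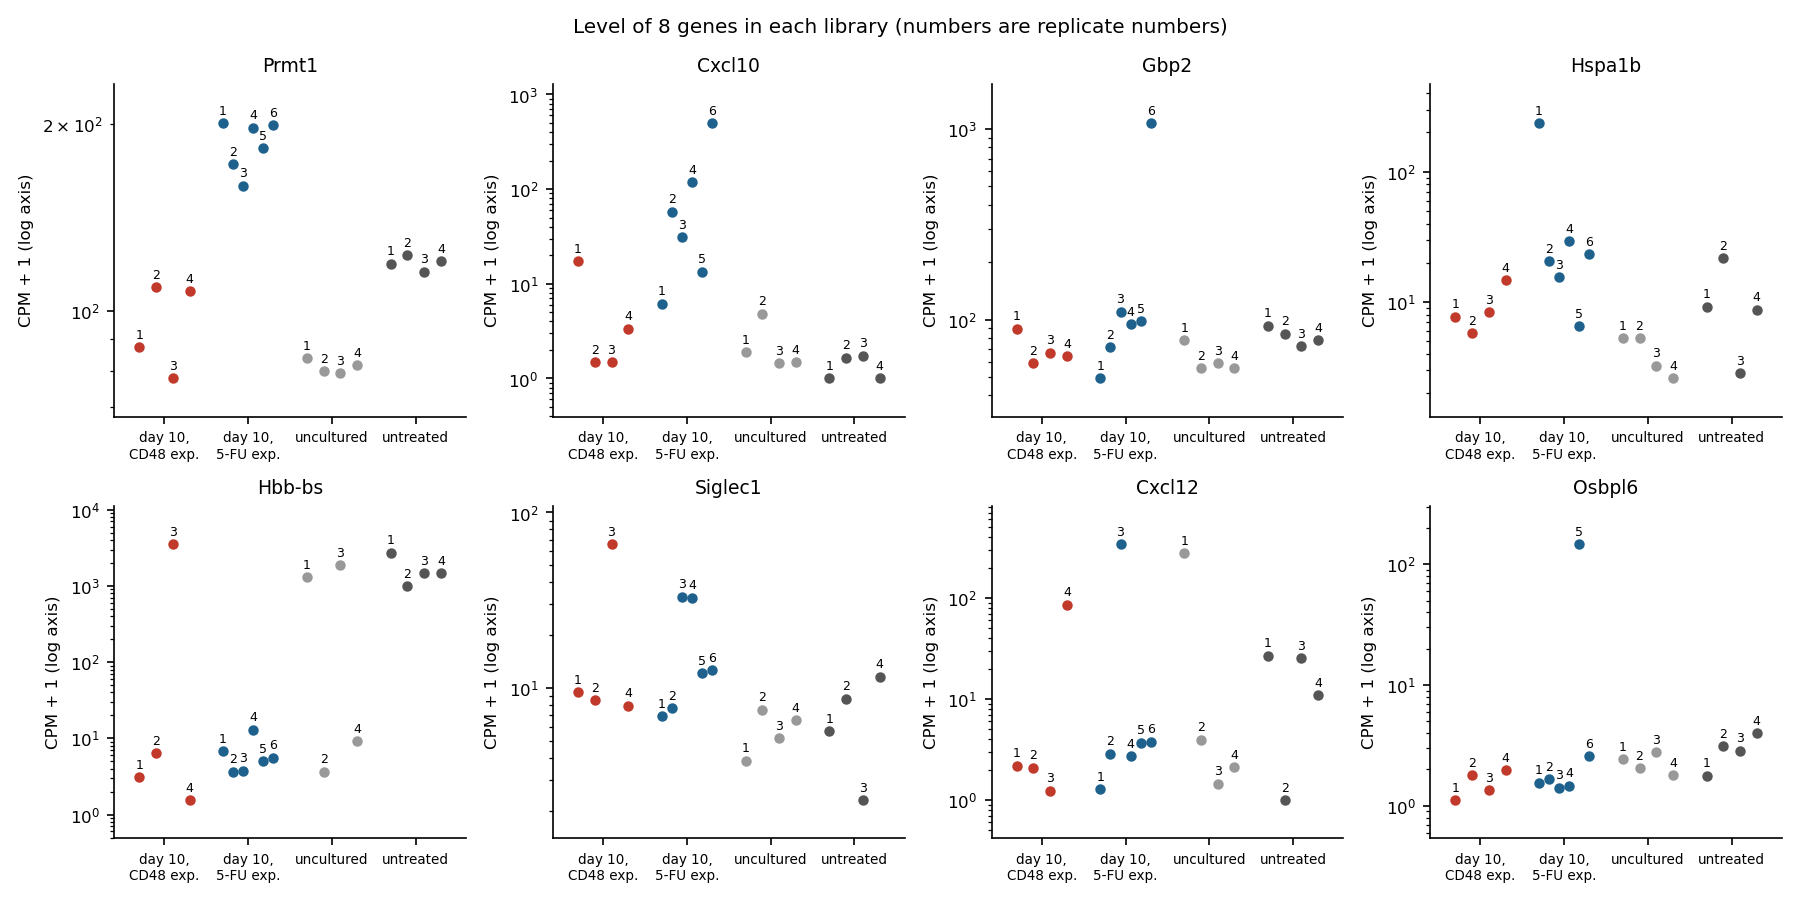
CPM + 1 on a log axis of 8 genes in each day-10 and steady-state library, with replicate numbers. Hbb-bs peaks in CD48-experiment replicate 3 at 3509 CPM, Cxcl10 in 5-FU-experiment replicate 6 at 501 CPM and Cxcl12 in 5-FU-experiment replicate 3 at 338 CPM.

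Counted gene by gene, single libraries stood out to very different degrees. A gene was counted when its log2(CPM + 1) in 1 library lay more than 1 above the highest, or below the lowest, of the other libraries of its set. In the CD48-experiment set replicates 1 to 4 had 6, 7, 85 and 22 such genes above and 9, 13, 7 and 50 below, of 10432 genes. In the 5-FU-experiment set replicates 1 to 6 had 19, 2, 65, 19, 2 and 133 above and 21, 5, 3, 3, 13 and 16 below, of 10484 genes. At this limit replicate 6 of the 5-FU-experiment set had the most, while at 4-fold it had 23 above, against 30 each for replicate 3 of the CD48-experiment set and replicate 3 of the 5-FU-experiment set. Replicate 6 held Cxcl9 at 135 CPM against 7.43 CPM in the next library, Gbp10 at 249 against 15.7 CPM and Apol9a at 82.9 against 6.52 CPM. These libraries were picked by their values, so no test is given.

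Erythroid transcripts were far higher in replicate 3 of the CD48-experiment set than in its other libraries. Hbb-bs, a beta globin gene, was at 2.12, 5.33, 3509 and 0.555 CPM in the CD48-experiment set and at 2.67 to 11.96 CPM (median 4.31) in the 5-FU-experiment set. Its log2 difference between sets was 7.40 ± 1.81 (edgeR adjusted p = 0.0438), and without replicate 3 it was -0.95 (adjusted p = 0.443). Hba-a1 and Hba-a2, near-identical alpha globin genes whose reads cannot be split with certainty, were at 1622 and 1349 CPM in that library and at most 0.0987 and 0.59 CPM in the others of its set. Slc4a1, the red cell anion exchanger gene, was at 393 CPM there and had no reads in the other 3 libraries. Summed over the 27 erythroid list members, CPM was 1083, 1198, 10870 and 1159 in the CD48-experiment set, with 7, 8, 0 and 9 members at 0, and 1175 to 2365 in the 5-FU-experiment set. Replicate 4 of the 5-FU-experiment set led the list for 11 of 15 members with at least 10 CPM in some library of that set. A member can pass that limit through the highest library alone. Replicate 4 held the erythroid factor gene Klf1 at 16.5 CPM, against 1.82 CPM in the next library. Its red cell spectrin anchor gene Ank1 was at 58.4 CPM, against 8.02 CPM at most in the others. Erythroid transcripts were not confined to day 10, since Slc4a1 ranged from 0.159 to 184 CPM in uncultured and from 2.79 to 200 CPM in untreated HSCs.

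Macrophage genes went up in the same library and in others. Siglec1, a receptor of marrow macrophages, was at 8.49, 7.503, 64.8 and 6.94 CPM in the CD48-experiment set and at 5.88, 6.68, 32.1, 31.7, 11.1 and 11.6 CPM in the 5-FU-experiment set. Vcam1, an adhesion molecule of central macrophages and stroma, was at 13.1, 13.4, 92.1 and 24.4 CPM in the CD48-experiment set and at 17.2, 11.4, 73.5, 34.5, 20.1 and 22.4 CPM in the 5-FU-experiment set. Csf1r, the receptor for macrophage colony-stimulating factor, was at 10.0, 9.87, 34.8 and 4.99 CPM in the CD48-experiment set and at 7.28, 8.55, 20.8, 32.3, 7.45 and 11.5 CPM in the 5-FU-experiment set. Replicate 3 of the CD48-experiment set and replicates 3 and 4 of the 5-FU-experiment set were thus the high libraries for all 3 genes. Of members with at least 10 CPM in some library of the set, replicate 3 was highest of the CD48-experiment set for 19 of 19. In the 5-FU-experiment set replicate 3 was highest for 12 and replicate 4 for 5 of 19 such members. A member can pass this limit through the highest library alone, so these counts are descriptions. Summed CPM of the 26 members of the monocyte and macrophage list was 410, 518, 1173 and 387 in the CD48-experiment set and 494 to 985 in the 5-FU-experiment set. Between sets 0 of 21 members passed by edgeR, with 2 at an unadjusted p under 0.05.

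Stromal genes were high in 1 library of each set. Cxcl12, the chemokine with which stromal cells hold HSCs in the marrow, was at 85.0 CPM in replicate 4 of the CD48-experiment set and at most 1.18 CPM in its other libraries. Cxcl12 in the 5-FU-experiment set was at 338 CPM in replicate 3 and at most 2.78 CPM in the others. The leptin receptor gene Lepr, a marker of such cells, was at 9.02 CPM in replicate 4 of the CD48-experiment set and at 13.9 CPM in replicate 3 of the 5-FU-experiment set. The matrix protein gene Ltbp2 was at 26.1 and 81.5 CPM in those same libraries. Igfbp5 at 130 CPM and Tnc at 72.4 CPM, a growth factor binding protein and a matrix glycoprotein gene, were high in 5-FU-experiment replicate 3 alone, the next library having 1.24 and 0.732 CPM. Col1a1, the collagen gene of osteoblasts and fibroblasts, stayed at 0.708 to 2.50 CPM in the CD48-experiment set and at 1.60 to 4.76 CPM in the 5-FU-experiment set, no higher in the libraries rich in Cxcl12 than in the rest. Col1a2, which encodes the partner chain of Col1a1 in collagen I, was instead highest in those libraries, at 6.96, 10.6, 13.2 and 32.3 CPM in the CD48-experiment set and at 5.60, 5.21, 38.5, 3.73, 9.77 and 5.81 CPM in the 5-FU-experiment set. Summed CPM of the 17 stromal genes was 28 to 39 in replicates 1 to 3 and 169 in replicate 4 of the CD48-experiment set, and 541 in replicate 3 and 24 to 39 in the other libraries of the 5-FU-experiment set.

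Of the lists of other cell types, none had more than 1 gene that passed between the sets. Cd3e of T cells was at 0 in all 10 libraries, and the neutrophil gene S100a8 reached 0.694 CPM in the CD48-experiment set and 1.55 CPM in the 5-FU-experiment set. Cdh5 of endothelium was at most 1.39 CPM in the CD48-experiment set and 5.13 CPM in the 5-FU-experiment set, while Pecam1, which HSCs express themselves, was at 117 to 195 CPM across both. Summed over whole lists, B cell genes reached 21.1 to 32.7 CPM in the CD48-experiment set and 21.1 to 31.7 CPM in the 5-FU-experiment set. Sums of the eosinophil list were 1.30 to 19.9 CPM in the CD48-experiment set, with the highest in replicate 3, and 2.90 to 10.1 CPM in the 5-FU-experiment set. T and NK cell genes summed to 168 to 268 CPM in the CD48-experiment set, with 11 to 14 of 20 members at 0, and to 139 to 237 CPM in the 5-FU-experiment set, with 10 to 12 at 0. The neutrophil and granule list summed to 644 to 894 CPM in the CD48-experiment set and 541 to 816 CPM in the 5-FU-experiment set. The dendritic cell list summed to 474 to 577 CPM in the CD48-experiment set and 515 to 793 CPM in the 5-FU-experiment set. The mast cell and basophil list summed to 1285 to 1341 CPM in the CD48-experiment set and 881 to 1244 CPM in the 5-FU-experiment set. Sums of the endothelial list were 2761 to 2903 CPM in the CD48-experiment set and 2288 to 2923 CPM in the 5-FU-experiment set. These lists thus held expressed members in every library, and their part in the results was not tested.

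Of the remaining libraries, replicate 1 of the 5-FU-experiment set had 19 genes above and 21 below the limit of 1. Replicate 4 of that set, one of the 5 libraries left out above, had 19 and 3. The other remaining libraries had fewer such genes than replicate 1, although some led whole lists. Replicate 2 was the highest library of the CD48-experiment set for 75 of 80 ribosomal protein genes, 20 of 21 replication-dependent histone genes, 46 of 70 oxidative phosphorylation genes and 41 of 52 DNA replication genes with at least 10 CPM. Ribosomal protein list means were 8.85, 9.11, 8.76 and 8.57 in the CD48-experiment set, and 8.81 to 8.96 in the 5-FU-experiment set. Replicate 1 of the 5-FU-experiment set held the inducible heat shock genes Hspa1a and Hspa1b at 109 and 236 CPM, against 7.02 and 28.3 CPM in the next library. It was the highest of its set for 14 of 17 heat shock and chaperone genes with at least 10 CPM in some library. Such counts can include members that reach 10 CPM in the highest library alone. Hspa1a in the CD48-experiment set was at 1.19 to 8.05 CPM and Hspa1b at 4.74 to 13.7 CPM. Replicate 5 held Osbpl6, an oxysterol-binding protein gene, at 145 CPM, while the other 5 libraries of its set had 0.413 to 1.57 CPM and the CD48-experiment set 0.118 to 0.971 CPM. Replicate 2 held Zan at 131 CPM against 45.8 CPM in the next library. In the CD48-experiment set replicate 1 led with Gbp6 at 45.1 against 29.0 CPM and Neurl1b at 87.4 against 57.2 CPM, and replicate 2 with Clspn, a replication checkpoint gene, at 43.2 against 23.6 CPM. For Gbp6, Neurl1b and Clspn the gap to the next library was under 2-fold.

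The genes that varied most were partly the same in both sets. Of the 500 genes with the largest SD within each set, 135 were in both lists (27% of each), where each list holds 5.07% of the genes considered. A gene can reach the mean of 10 CPM needed here through 1 high library alone. The SD was not adjusted for expression level, so these shares are descriptions. In the CD48-experiment set the SD on the log2 scale was 2.82 for Cxcl12, 1.95 for Ltbp2, 1.91 for Ank1, 1.67 for Cxcl10 and 1.15 for Ifit3. In the 5-FU-experiment set it was 2.91 for Cxcl12, 1.99 for Ltbp2, 1.29 for Ank1, 2.27 for Cxcl10 and 1.96 for Ifit3. Siglec1, Csf1r, C1qc and Mrc1, which macrophages express, and Hmox1 and Slc40a1, which act in the handling of haem and iron, were also among the 135 and were picked as examples.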

How the data were processed

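The deposited files hold total exon read counts for 48737 entries per library, per the file headers, on mm10 according to the submitters' processing notes, and the aligner is not given in the sources used. Counts were summed over entries of 1 gene identifier (1931 of 46113 genes had more than 1). Mitochondrial genes have no exon entry, so their reads count as intron reads. Tests were quasi-likelihood F tests of edgeR 4.0.16 under R 4.3.3 after filterByExpr and TMM, with no covariates and a Benjamini-Hochberg adjusted p under 0.05 as threshold, in 1 fit of the 10 day-10 libraries and 1 fit of 18 libraries. SEs are the absolute log2 change over the root of F. CPM use TMM-scaled sizes, log levels a pseudocount of 1, and ± values in CPM are SDs. Fits were tested on simulated data. DESeq2 1.42.0, RLE size factors, no filter, other read classes, other sets of libraries and left-out libraries were alternatives. Tables and exact tests used Python 3.11.15, pandas 2.3.3 and SciPy 1.17.1. No pair of libraries within a day-10 set was a duplicate, since chi-square values were 8.29 to 46.5 per degree of freedom. Pairs from different sets were not put through this check. The libraries, the 34 gene lists and the rules were chosen with earlier results of these data known. Named genes are the 8 largest rises and falls between sets among non-overlapping genes with a mean of at least 32 CPM, the 6 largest shared day-10 rises and falls, the 10 steadiest and 10 most abundant genes, 3 genes per library, leading list members and fixed markers, of which a part is printed. Other genes are named as called members of a list. Some genes held back for evaluation stayed in the counts and fits but are not named.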

Additional observations from a re-analysis of the deposited data

Results flagged for a closer look

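In 38 of 325 groups of libraries examined (genes named by rule and gene lists, each in 1 set), the highest or lowest library lay farther from the others than Dixon's 95% limit allows. Chance flags about 1 in 20 groups, but the 2 shares cannot be compared, since some of these genes were named because 1 library stood out. Of the 38, 30 were levels of single genes in CPM.

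In the CD48-experiment set, replicate 3 was the high library for Hba-a1 at 1622, Hba-a2 at 1349, Slc4a1 at 393, Alas2 at 68.4 and Klf1 at 16.4 CPM, and for Siglec1 at 64.8, C1qb at 32.5 and C1qc at 26.7 CPM. Its erythroid list stood at a mean log2(CPM + 1) of 5.76 (next library 2.36), its monocyte and macrophage list at 4.25 (2.96) and its HSC identity list at 7.13 (7). Replicate 4 was high for Cxcl12 at 85.0 and Kit at 956 CPM and for the stromal list at 1.95 (next 1.08), and low for Procr at 61.3 CPM (next 91.3) and the B cell list at 0.653 (next 0.798). Replicate 2 was low for Ech1 at 113 CPM (next 122) and Tbc1d10c at 89.3 CPM (next 99.3). Replicate 1 was low for Rhbdf1 at 5.90 CPM (next 11.4).

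In the 5-FU-experiment set, replicate 3 was the high library for Cxcl12 at 338, Igfbp5 at 130, Ltbp2 at 81.5, Tnc at 72.4 and Lepr at 13.9 CPM, for the stromal list at 3.08 (next 1.32) and for the immediate early list at 6.14 (next 5.5). Replicate 4 was high for Ank1 at 58.4, Steap3 at 34.8, Hba-a1 at 16.9 and Klf1 at 16.5 CPM and for the erythroid list at 3.83 (next 2.64). Replicate 6 was high for Gbp2 at 1076 CPM and low for Camsap3 at 18.4 CPM (next 26.7). Replicate 5 was high for Osbpl6 at 145 and Vav3 at 154 CPM, and replicate 1 for Jag1 at 138 CPM (next 102). Replicate 2 was high for Ubp1 at 196 CPM (next 177) and low for Clspn at 26.2 CPM (next 41.5). Ech1 and Ubp1 are among the 10 steadiest genes, so those gaps are small in size.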

How the results depend on the processing

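Of 1775 recomputed values, 1364 kept their direction and side of the threshold or stayed within their limit, 246 lost their call, 158 moved and 7 changed sign. The difference between the sets was the least stable result. Its calls (in all, higher and lower) numbered 1402, 569 and 833 by DESeq2, 2187, 992 and 1195 with all 30 libraries in 1 fit, 8, 2 and 6 on intron reads and 0 in each with 5 libraries left out together, a setting chosen after the data were seen. Without a filter on low counts 108 genes were higher. Without 1 library the totals ran from 8 to 906, with 3 to 321 higher and 5 to 585 lower. Replicate numbers did not pair the libraries: deviations of same-numbered libraries from their set means correlated with r of -0.053, -0.124, 0.159 and -0.111. With the replicate number as a block, 9 genes passed between sets (2 higher and 7 lower). Against steady state, intron reads gave 980 calls in the CD48 experiment, 2442 in the 5-FU experiment and 607 in both, and the 5 libraries left out gave 1216 in the CD48 experiment and 875 in both. Without 1 library the CD48 experiment had 1243 to 2060 calls. The difference of the 2 changes had 163 calls by DESeq2, 107 with all 30 libraries, 1 on intron reads and 0 to 8 without 1 library. Cases of a gene with 1 library outside the rest of its set numbered 500, 315 with a pseudocount of 5 and 122 at 4-fold. Cases are summed over both sets, so a gene such as Cxcl12 counts more than once. The log2 difference of Hbb-bs was -0.95 without CD48-experiment replicate 3, up to 7.82 without another library, and -0.15 with the 5 libraries left out. On intron reads it was -0.0788 for Rpl29, 0.0814 for Atp5j2, 0.297 for Ndufc2, 0.0124 for Pdia4 and 0.0463 for Hsp90ab1. Apart from what fewer samples or fewer reads bring, the cause of these shifts was not tested. Depth limits low genes, whose single reads weigh most.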
